A study of Mus musculus with 2 samples.

Results

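The 47 genes described here encode the synaptic vesicle and release machinery. They were chosen by name, from 12 families of vesicle, fusion, active zone and endocytosis proteins, and are 47 of 21938 protein-coding genes in the annotation used. The assay was DNase-seq, which maps accessible chromatin as the places that DNase I can cut, applied to hippocampal tissue of males 10 days old. The mice were B6CASTF1/J, hybrids of the first generation between C57BL/6J and CAST/EiJ, and the labels name no transgene or treatment. There was 1 group of 2 biological replicates, each a tissue sample that the labels describe as 3 males. Both samples carry the same donor label and the tissue is called a layer of hippocampus, so the spread between the 2 libraries measures only these samples. In bulk tissue, fewer cells of a type with an open site and less opening per cell cannot be told apart.

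Synaptic vesicles store neurotransmitter and fuse with the presynaptic membrane when calcium enters the terminal. Vesicle SNARE proteins pair with SNAREs of the plasma membrane to drive fusion, synaptotagmins sense calcium, complexins clamp and assist the assembling SNAREs, and UNC13 and RIM proteins prime vesicles at the active zone. In the hippocampus this machinery serves the excitatory relay from dentate gyrus to the pyramidal layers as well as inhibitory terminals, and at the age studied synapses are still forming.

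A gene was called open in a library where an accessible region of the shorter deposited list lay within 1000 bp of any of its annotated starts. Its promoter height was the authors' signal value of the highest such region. By this rule 43 of the 47 members were open in replicate 1 and 47 in replicate 2, where 59.6% and 64.0% of all protein-coding genes were open. In both libraries 43 members were open, which is 91.5%, beside 59.3% of all protein-coding genes. A footprint, a short protected stretch inside accessible DNA, lay within 1000 bp of a start in both libraries for 45 members, beside 63.0% of all protein-coding genes. With the longer, more permissive lists 45 members were open in both libraries, against 64.4% of all protein-coding genes. With only the stronger 50% of regions the number was 31, or 66.0%, against 50.6% of all protein-coding genes.

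Although nearly all members were open, few of their promoters were tall. The median height was 1.78 in replicate 1 and 1.97 in replicate 2 for members with a region, whereas open protein-coding genes had medians of 2.59 and 3.14. The quartiles of members lay at 0.858 and 2.53 in replicate 1 and at 1.11 and 3.27 in replicate 2. In replicate 1, 32 of 43 members were below the median of open protein-coding genes and 1 was above the upper quartile. In replicate 2, 34 of 47 were below the median and 4 were above the upper quartile. No member reached the highest 10% of open genes in either library. Summing all promoter regions of a gene gave the same order, with medians of 2.19 and 2.76 for members open in both libraries against 3.41 and 4.48 for protein-coding genes open in both. Footprints were closer, with a median of 6 and 9 near the starts of members open in both libraries, against 7 and 9 for protein-coding genes open in both. Bases at a false discovery rate of 0.001 or lower near the starts had medians of 442 and 887 for these members, against 691 and 985.

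The 4 members without a region in replicate 1 differed in how near they came to one. In replicate 1 the lowest false discovery rate of a base near a start was 0.00166 at Syngr3, 0.0293 at Syt2 and 0.0428 at Doc2a, and no base was listed at Cplx3. Syngr3 and Syt2 had a region in the longer list of replicate 1, and Doc2a and Cplx3 had none.

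**Figure D1:**
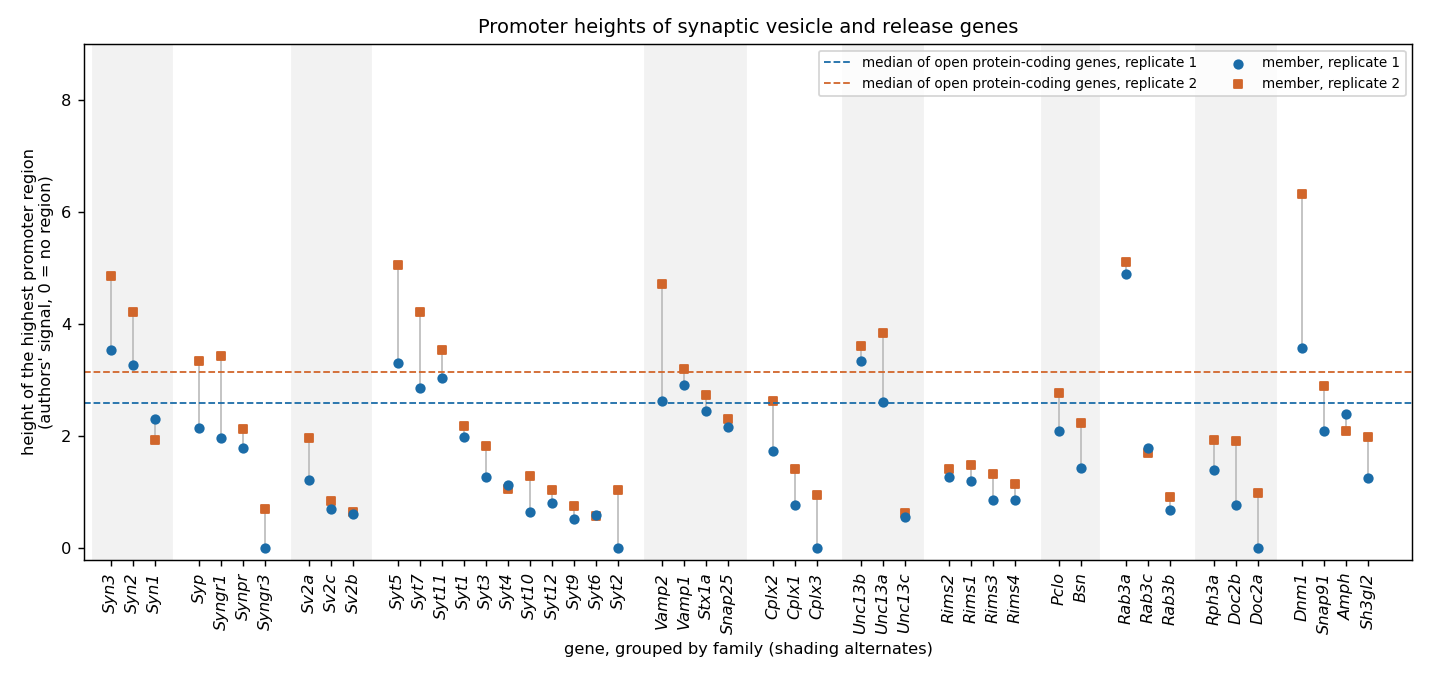
Promoter height of each of the 47 members (authors' signal of the highest region within 1000 bp of a start, 0 where no region was listed), grouped by family, with circles for replicate 1, squares for replicate 2 and dashed lines at the medians of open protein-coding genes. Dnm1 and Rab3a stand highest, most members lie under both lines, and Syngr3, Syt2, Cplx3 and Doc2a have no region in replicate 1.

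Heights were also compared within classes of CpG content. The ratio of observed to expected CpG in 500 bp on each side of the outermost start had a median of 0.667 over members and 0.552 over all protein-coding genes. Of 27 members with a ratio above 0.6, 26 were open in both libraries, which is 96.3% beside 91.4% of protein-coding genes of that class. Their median heights were 1.70 and 1.98, against 3.01 and 3.70 for open protein-coding genes of the class. Of 20 members with a lower ratio, 17 were open in both libraries, or 85.0%, whereas 32.0% of such protein-coding genes were. Their median heights of 1.78 and 1.95 lay near the 1.72 and 1.88 of open protein-coding genes of the class. Members of the CpG-rich class were thus about as often open as other genes of it and lower in height, while CpG-poor members were more often open and of like height. Genes are not replicates, and these shares and medians describe the list without a test.

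**Figure D2:**
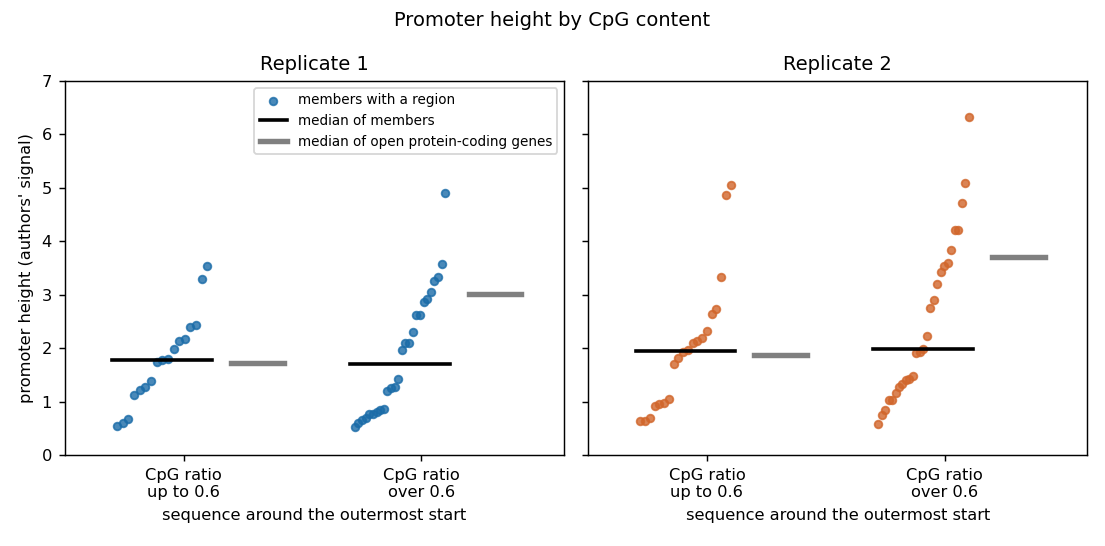
Promoter heights (authors' signal) of members with a region in replicate 1 and replicate 2, split by CpG ratio around the outermost start; points are spread sideways by rank, black lines are medians of members and grey lines medians of open protein-coding genes. In the class over 0.6 the members' medians of 1.70 and 1.98 lie under the grey lines at 3.01 and 3.70, and in the class up to 0.6 the lines nearly meet.

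Replicate 2 had longer lists, and 38 of the 43 members open in both libraries were higher in it, beside 87.2% of protein-coding genes. The height in replicate 2 was more than 1.5 times that in replicate 1 for 13 of the 43, which compares with 19.0% of protein-coding genes, and the median ratio was 1.35 for members against 1.25. Doc2b had the widest ratio between the libraries, with 0.773 in replicate 1 and 1.91 in replicate 2. Rab3c, Syt4, Syt6, Amph and Syn1 were the 5 that were lower in replicate 2.

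The RE1 element is the 21-base site of REST, a repressor that holds neuronal genes silent outside neurons and in precursors. Its consensus, with the left part TTCAGCACC, 2 free bases and a right part, was searched on both strands with up to 3 mismatches among its 19 fixed letters. The locus of a gene, its body plus 10 kb on each side, held a match for 13 of 47 members, or 27.7%, beside 4.57% of all protein-coding genes. Per length the members' loci held 2.25 matches per Mb, against 0.769 in protein-coding loci. Of the 16 matches in members' loci, 6 lay in an accessible region in both libraries, which is 37.5%. In protein-coding loci 121 of 918 matches did, or 13.2%, and in the genome 146 of 1296, or 11.3%. These shares were not matched for distance to a start. The open matches are printed from the reference in GRCm38 (mm10), 5′ to 3′ on the strand of the consensus, with letters equal to the consensus in capitals, since they show how close each one is.
Snap25, chr2:136714338-136714358, plus strand: TTCAGCACCgcGGACAGCGat
Syn1, chrX:20921130-20921150, minus strand: TTCAGCACCgcGGtCAGaGCC
Syp, chrX:7638737-7638757, plus strand: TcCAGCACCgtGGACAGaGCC
Syt6, chr3:103573989-103574009, plus strand: TTCAGCACCgcGGACAGgGaC
Rph3a, chr5:121009614-121009634, plus strand: gTCAGtACCacGGACAGCaCC
The sixth open match belonged to Syt4. Of the 6, 5 had 2 mismatches and that of Rph3a had 3.

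The 6 open matches lay 25 to 1232 bp from the nearest start. Of the 10 closed ones, 2 lay within 1300 bp. That limit is none of the promoter distances used and lies just above the farthest open match. No such count was made over all matches in the genome. The Syp match was 25 bp downstream of the nearest start, over a coding exon, and overlapped the end of the promoter region, which had heights of 2.14 and 3.34. The Syn1 match lay 136 bp upstream of the outermost start, outside the gene, in a region of 2.30 and 1.93. Those of Rph3a, 86 bp upstream of the nearest start but inside an intron of a longer transcript, and of Syt4, 218 bp downstream of its start in a UTR exon, lay in promoter regions of 1.40 and 1.93 and of 1.13 and 1.05. The Snap25 match was 870 bp downstream of the nearest start, in an intron, in a second region of 1.40 and 1.61. The Syt6 match was 1232 bp upstream of the gene in a distal region of 0.515 and 0.929, beside 0.597 and 0.584 at its promoter. A footprint overlapped the matches of Rph3a, Snap25 and Syt6 in both libraries, that of Syt4 in replicate 2 alone, and those of Syn1 and Syp in neither.

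The match closest to the consensus among members was closed. It lies in an intron of Syt2, 18334 bp from the nearest start, on the plus strand, and is printed to show its single mismatch.
Syt2, chr1:134665005-134665025: TTCAGCACCacGGACAGCaCC
No region of either list in either library overlapped it or any of the other 9 closed matches, which lay at Amph, Rims3, Rph3a, Synpr, Syt3, Syt7 and Syt9. The Unc13a promoter held both parts of RE1 exactly, with 8 bases between them in place of 2, a stretch that the full consensus search does not find. It is shown with both parts in capitals.
Unc13a, chr8:71671727-71671753, plus strand: TTCAGCACCgggggcgcGGACAGCGCC
These matches are letters in the reference, and occupancy by REST was not measured.

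In windows of 300 bp centred on the highest promoter region, the full RE1 matched in 4 of 47 members (Rph3a, Syt4, Syp and Syn1), or 8.51%, beside 0.377% of 12728 windows of protein-coding genes. The cyclic AMP response element TGACGTCA, also searched on both strands, lay in 4 (Snap25, Sh3gl2, Syngr3 and Syn1), or 8.51%, beside 3.67%. The palindromic site of the activator NRF1 lay in 2 (Bsn and Syn1), or 4.26%, beside 2.21%. The SP/KLF box GGGGCGGGG lay in 17, or 36.2%, beside 21.1%. The core of the CTCF motif lay in none of the 47, and in 5.96% of all windows. The RefSeq promoters of 3 members are printed in GRCm38, from 250 bases before to 50 after the start on the strand of the gene, with the searched motifs in capitals, because they carry the RE1, CRE and NRF1 letters.
Syn1, chrX:20920869-20921168, minus strand (RE1, then CRE): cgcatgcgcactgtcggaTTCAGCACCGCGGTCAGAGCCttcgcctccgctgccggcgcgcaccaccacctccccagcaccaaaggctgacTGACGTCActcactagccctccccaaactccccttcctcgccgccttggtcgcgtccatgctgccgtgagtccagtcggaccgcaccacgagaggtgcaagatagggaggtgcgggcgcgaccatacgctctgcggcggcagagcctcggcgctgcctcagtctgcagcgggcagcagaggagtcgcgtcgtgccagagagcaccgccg
Sh3gl2, chr4:85205206-85205505, plus strand (CRE): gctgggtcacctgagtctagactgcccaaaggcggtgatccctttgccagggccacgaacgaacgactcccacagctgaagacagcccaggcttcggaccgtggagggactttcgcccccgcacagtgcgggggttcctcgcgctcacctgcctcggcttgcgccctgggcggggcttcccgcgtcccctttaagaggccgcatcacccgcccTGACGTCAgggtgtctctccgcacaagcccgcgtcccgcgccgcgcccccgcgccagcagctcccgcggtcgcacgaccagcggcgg
Bsn, chr9:108190334-108190633, minus strand (NRF1, at both places): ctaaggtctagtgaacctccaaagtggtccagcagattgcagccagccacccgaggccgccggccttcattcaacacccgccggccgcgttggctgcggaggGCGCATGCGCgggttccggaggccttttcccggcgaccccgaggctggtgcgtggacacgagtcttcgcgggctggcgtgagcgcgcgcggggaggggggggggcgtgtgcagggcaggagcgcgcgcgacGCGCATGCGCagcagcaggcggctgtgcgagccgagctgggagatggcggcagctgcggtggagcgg
Over all 32817 RefSeq promoters the full RE1 lay in 0.0731%, the CRE in 1.79% and the NRF1 site in 0.966%. Among the 47 RefSeq promoters found for 35 members the counts were 2, 2 and 1.

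Of the vesicle proteins, the synapsins, which tether vesicles to one another and to actin, included a pair of tall promoters. Syn3 had heights of 3.53 in replicate 1 and 4.87 in replicate 2, and Syn2 had 3.27 and 4.21. Syn1, on the X chromosome, had 2.30 and 1.93, below both in each library. Males carry a single X chromosome, where Syp also lies, and heights were not adjusted here for copy number. The tetraspan proteins of the vesicle membrane followed with Syp at 2.14 and 3.34, Syngr1 at 1.96 and 3.44 and Synpr at 1.78 and 2.13. A start of Rpl3, a ribosomal protein gene, lay within 1000 bp of the Syngr1 region. Syngr3 had no region in replicate 1 and one of 0.705 in replicate 2, and the longer lists held it in both, at 0.660 and 0.967. Of the SV2 glycoproteins, Sv2a was at 1.21 and 1.97, above Sv2c at 0.704 and 0.852, which was above Sv2b at 0.610 and 0.645. Sv2a encodes the family member most widely made in brain.

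The synaptotagmins, a family of 11 members here, had open promoters with heights of 0.528 to 3.30 in replicate 1, against 0.584 to 5.06 for replicate 2. Syt5 reached 3.30 in replicate 1 and 5.06 in replicate 2, and Syt7, the slow calcium sensor of facilitation and asynchronous release, 2.87 and 4.21. Syt11, which lacks calcium binding, had 3.05 and 3.54, at its second start, 2.57 kb inside the outermost one, which was closed in both libraries. Syt1, the fast sensor of synchronous release in forebrain neurons, came next with 1.99 and 2.19, above the family medians of 1.20 and 1.28. Syt2, the fast sensor of hindbrain and of some inhibitory terminals, had no region in replicate 1 and one of 1.04 in replicate 2, at a start 62.6 kb inside the gene. The outermost Syt2 start had 0.787 in replicate 2 alone. The remaining ones were low, from Syt3 at 1.28 and 1.82 through Syt4, Syt10, Syt12 and Syt9 to Syt6 at 0.597 and 0.584, the lowest mean of all members open in both libraries. The Syt3 region lies in the body of 1700008O03Rik, a protein-coding gene with a start within 1000 bp of it. Syt4 and Syt6 differed from the rest in being slightly lower in replicate 2, with 1.13 and 1.05 for Syt4.

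The 4 SNARE genes of the set lay close together. Vamp2, the main vesicle SNARE of the forebrain, had 2.63 in replicate 1 and 4.72 in replicate 2, and its paralog Vamp1 had 2.92 and 3.21. The pair overlapped, since Vamp1 was higher in replicate 1 and Vamp2 in replicate 2. The plasma membrane SNAREs were lower, Stx1a with 2.44 and 2.74 and Snap25 with 2.17 and 2.32. Of the complexins, Cplx2 had 1.74 and 2.64, at a start that is not the RefSeq one, and Cplx1 0.773 and 1.41. Cplx3, best known from retinal ribbon synapses, had no region in replicate 1 in either list, no footprint there, and 0.95 in replicate 2, with 5 footprints within 1000 bp of a start.

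Priming factors of the UNC13 family were split. Unc13b had 3.34 and 3.61 and Unc13a 2.61 and 3.84, which overlapped, whereas Unc13c, whose product is known mainly from cerebellum, had 0.553 and 0.639. All 4 RIM genes lay under the lower quartile of open protein-coding genes in both libraries. Rims2 had 1.28 and 1.42, Rims1 1.19 and 1.48, Rims3 0.861 and 1.33, and Rims4 0.855 and 1.16. Their median CpG ratio was 0.787 and their median GC content 71.1%, beside 54.7% GC over all protein-coding genes. The giant scaffolds had 2.10 and 2.76 for Pclo and 1.43 and 2.24 for Bsn, ranges that overlapped.

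RAB3 GTPases, which mark vesicles for docking, held the highest promoter of the set in replicate 1. Rab3a had 4.90 in replicate 1 and 5.10 in replicate 2, Rab3c 1.80 and 1.70, and Rab3b 0.679 and 0.918, with no overlap between any of the 3. Rph3a, a RAB3 effector, had 1.40 and 1.93, and Doc2b, a proposed calcium sensor of spontaneous release, overlapped it. Doc2a had no region in replicate 1 in either list and no footprint there, and 0.983 in replicate 2, with 17 footprints within 1000 bp of its starts, of which 3 lay in the region. Of the endocytosis genes, Dnm1, the neuronal dynamin that cuts vesicles from the membrane, had 3.58 and 6.33, and the value in replicate 2 was the highest of all members. A start of Ciz1 lay within 1000 bp of its region. The clathrin adaptor Snap91 had 2.10 and 2.90, Amph, which recruits dynamin, 2.40 and 2.09, and Sh3gl2, an endophilin, 1.25 and 1.98.

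Within families, some of which group genes by function, as endocytosis does, there were 98 pairs, and in 81 both genes were open in both libraries. In 60 of the 81, or 74.1%, the 2 heights of one gene did not overlap those of the other, beside 79.1% of all pairs of protein-coding genes open in both. The share was near that of genes at large. The separated pairs were 37 of 45 among synaptotagmins, 5 of 6 in endocytosis, 4 of 6 among SNAREs, 3 of 3 each for SV2 and RAB3, 2 of 3 each for synapsins and UNC13, 2 of 6 among RIMs, 1 of 3 in the synaptophysin family, 1 of 1 for complexins, and none of the pairs Pclo with Bsn and Rph3a with Doc2b. The widest ratio of means among pairs open in both libraries was 7.08 for Syt5 over Syt6, and the widest outside the synaptotagmins were 6.27 for Rab3a over Rab3b and 5.82 for Unc13b over Unc13c.

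No pair of paralogs was adjacent. The only family members on a shared chromosome were synaptotagmins, and in all 5 such pairs the heights did not overlap. Most pairs showed the same, 82.2% of synaptotagmin pairs and 79.1% of all pairs of protein-coding genes, counting genes open in both libraries. On chromosome 19, Syt7 had 2.87 and 4.21 and Syt12, 5.91 Mb away, 0.811 and 1.04, a ratio of means of 3.82. On chromosome 3, Syt11 exceeded Syt6, at a distance of 14.8 Mb, 5.58 times. On chromosome 7, Syt5 exceeded Syt3, 39.8 Mb away, 2.70 times, and Syt3 exceeded Syt9, 63.0 Mb away, 2.41 times. The closest members of any kind were Unc13a and Rab3a on chromosome 8, 0.866 Mb apart, and both were open in both libraries.

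Alternative starts were mostly closed, and the share of members with several open ones was near that of genes at large. Starts were grouped where their 1000 bp windows met, which left 29 members with at least 2 groups. Their first groups were open in both libraries in 27 of 29 cases, while 8 of 67 later groups were, and 7 more in replicate 2 alone. These counts of groups have no counterpart here over all protein-coding genes. Among 28 such members that were open in both libraries, 5 had at least 2 open groups, beside 16.6% of protein-coding genes. In Rims2 the last start, 461.3 kb inside the gene, had 1.28 and 1.42 and the first 0.792 and 1.40. Unc13b was open at its first start and, with 0.943 and 1.61, at 56.2 kb and, with 0.798 and 1.17, at 150.5 kb. Sh3gl2 was open at its first start and with 0.616 and 0.590 at 171.2 kb, and Syn3 with 1.13 and 0.934 at 7.0 kb. In Vamp1 the second group had 1.13 and 1.43, and the third had 0.773 and 0.989, with the start of Tapbpl within 1000 bp. A later Syn2 start, 118.1 kb inside the gene, was counted as open in replicate 2 alone with 1.37. That region was shared with replicate 1, at 0.955, where it lay outside the 1000 bp window, and in replicate 2 it lay within 1000 bp of a start of Timp4, which encodes a metalloproteinase inhibitor.

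Distal regions, those farther than 1000 bp from every annotated start, were counted over each locus. The members' loci held 101 in replicate 1 and 171 in replicate 2, and 85 of replicate 1 overlapped one of replicate 2. At least 1 shared distal region lay in 36 loci, or 76.6%, beside 44.1% for protein-coding genes, but the median locus was 80.5 kb for members and 37.4 kb for protein-coding genes. Per 100 kb, pooled over all loci, the members' loci held 1.19 shared distal regions, against 1.34 for protein-coding genes. The median over single loci went the other way, with 1.4 per 100 kb for members and 0.0 for protein-coding genes. Of the 85, 63 were in the gene body, 12 upstream and 10 downstream, and 6 lay over the body of another protein-coding gene. Their median heights were 1.14 in replicate 1 and 1.47 in replicate 2, against 1.04 and 1.27 for all shared distal regions. Syn3, whose introns enclose Timp3, held 14, Sh3gl2 6 and Rims2 5. Those of Syn3 all lay in the gene body, and the tallest, in an intron 34.9 kb from the first start, had 2.38 and 3.52. The next by mean, 202.5 kb inside, had 1.65 and 3.12. The tallest of Sh3gl2 lay 199.8 kb inside, in an intron, with 1.41 and 2.31. Rims2 also had the most footprints near its starts of any member, 23 in replicate 1 and 35 in replicate 2. There were 3 shared distal regions at each of Rims1, Syt2, Rims4, Syn2, Sv2b, Amph and Sv2c, and none at 11 members.

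In these distal regions, taken as 300 bp windows, the CTCF core lay in 13 of 85, beside 23.3% of all shared distal windows. The neurogenic E-box CAGATG lay in 28, beside 29.7%, the AP-1 site TGANTCA in 8, beside 8.97%, and the MEF2 box in 8, beside 3.98%.

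In 14 of the 34 members that were open in both libraries and had a shared distal region, the highest such region exceeded the promoter in both libraries. That is 41.2%, beside 26.9% of protein-coding genes, not adjusted for the members' longer loci and lower promoters. Rab3b showed the widest gap. A region of 200 bp outside the gene, 8.88 kb upstream, had 3.99 and 4.29, whereas its promoter had 0.679 and 0.918. Syt3 had 4.41 and 4.38 in a region downstream of the gene and 1.28 and 1.82 at the promoter. For Stx1a a region 7.80 kb upstream had 3.73 and 5.34, and for Cplx2 a region in an intron, 1.56 kb from the start used, had 2.57 and 3.67. RefSeq places a Cplx2 start 68.8 kb farther upstream, outside the locus analysed, where the highest region within 1000 bp had 1.87 and 1.81. With a promoter distance of 2500 bp the intronic region counts as the Cplx2 promoter, whose mean height is then 3.12. Vamp2 had its highest region, with 4.93 and 6.16, downstream of the gene and inside the body of Per1, a circadian clock gene. Among the others, Rims3 had 1.59 and 2.34 in a region 3.72 kb upstream, Doc2b 1.89 and 2.31 over a UTR exon, Rims2 1.5 and 2.82 and Sv2c 1.45 and 2.15 in introns, and Sv2b 0.905 and 2.05 downstream. Sh3gl2, Syt9, Unc13c and Syt12 completed the 14, each with its region in an intron. Which gene any distal region acts on was not measured.
The regions of Rab3b and Vamp2 are printed on the plus strand of GRCm38, with motif matches in capitals (the left part of RE1 in the first and the CRE in the second), because they stand above the promoters of their loci.
Rab3b, chr4:108870081-108870280: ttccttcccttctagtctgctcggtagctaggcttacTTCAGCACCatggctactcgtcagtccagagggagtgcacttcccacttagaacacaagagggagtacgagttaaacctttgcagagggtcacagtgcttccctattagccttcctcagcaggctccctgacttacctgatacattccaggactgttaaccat
Vamp2, chr11:69097001-69097280: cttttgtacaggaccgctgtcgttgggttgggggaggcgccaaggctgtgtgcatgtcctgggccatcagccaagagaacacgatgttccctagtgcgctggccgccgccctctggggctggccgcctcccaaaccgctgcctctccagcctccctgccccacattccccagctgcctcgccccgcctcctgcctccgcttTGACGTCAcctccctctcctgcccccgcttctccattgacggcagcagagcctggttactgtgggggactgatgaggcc
The Stx1a region, chr5:135015581-135015780, held none of the motifs searched without mismatches.

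**Figure D3:**
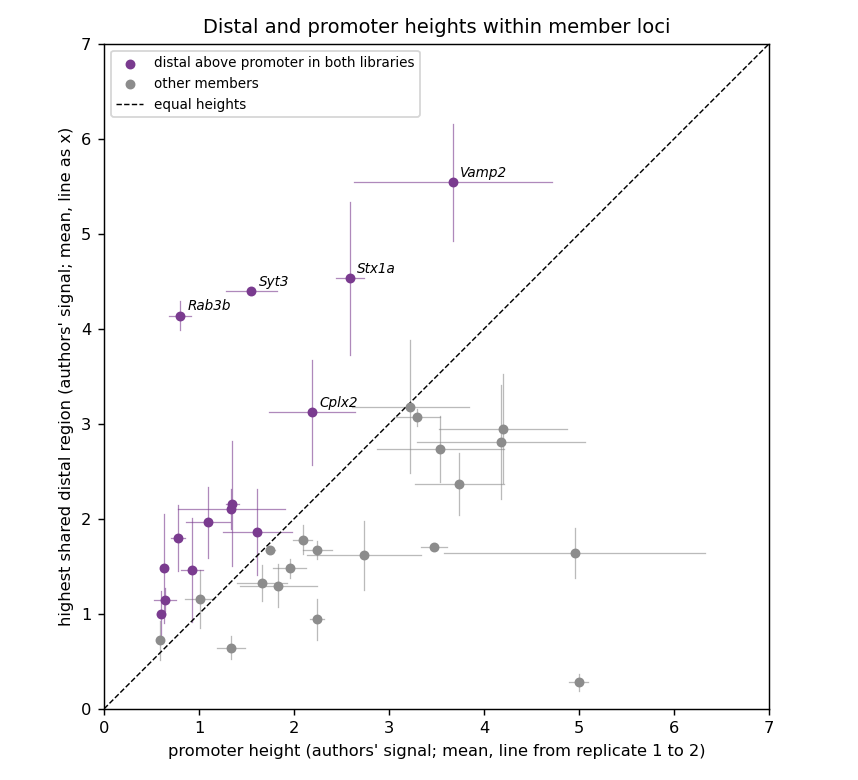
Height of the highest shared distal region against promoter height (authors' signal) for the 34 members open in both libraries with a shared distal region; points are means of the 2 libraries, lines run from replicate 1 to replicate 2, and the dashed line marks equal heights. The 14 purple points lie above the line in both libraries, with Rab3b, Syt3, Stx1a, Cplx2 and Vamp2 farthest up.

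The libraries differed most at Rab3a. Its locus had 2 distal regions in replicate 1 and 19 in replicate 2, of which 18 were not shared. These 18 lay between positions 70744661 and 70763008 of chromosome 8, had heights from 0.208 to 2.35 with a median of 0.404, and 9 of them held a footprint. Only 3 of the 18 overlapped the longer list of replicate 1. Vamp2 had 2 distal regions in replicate 1 and 9 in replicate 2, and the 7 unshared ones had a median of 0.35. A gain of at least 5 distal regions in replicate 2 was also seen at Pclo, with 0 and 5, Syn3, with 20 and 25, and Rims2, with 5 and 11. The 5 members compare with 2.2% of all protein-coding genes. Without the loci of Rab3a and Vamp2 the totals were 97 in replicate 1, 143 in replicate 2 and 82 shared. The cause of this difference between the libraries was not tested.

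**Figure D4:**
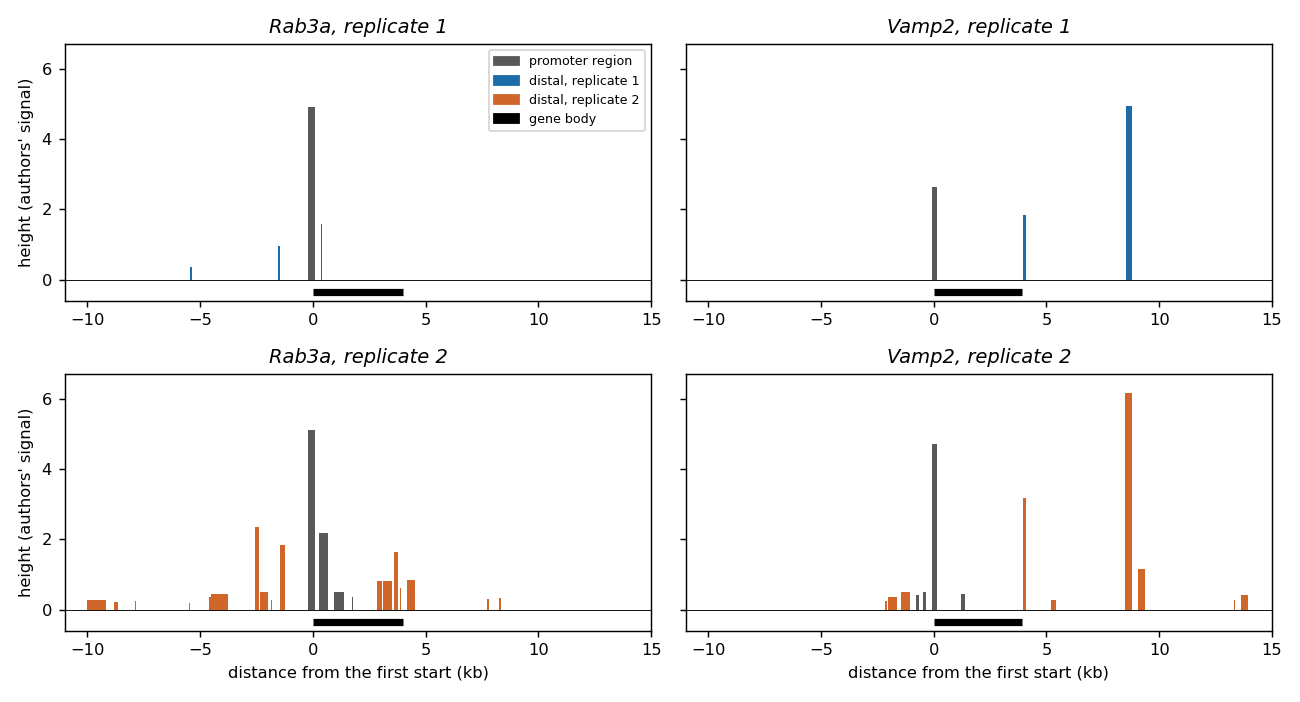
Accessible regions of the shorter lists around Rab3a and Vamp2 in replicate 1 (upper panels) and replicate 2 (lower panels), with distance from the first start in kb on the horizontal axis and height (authors' signal) on the vertical axis; grey bars are promoter regions, coloured bars distal regions and the black bar the gene body. Rab3a shows 2 distal regions in replicate 1 and 19 in replicate 2, while its highest promoter region stays at 4.90 and 5.10.

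A list of 59 further genes of the pathway, from other synaptotagmins and SNAREs to endocytosis proteins, was open at 54 in both libraries and at 1 more, Sypl2, in replicate 2 alone. The 54 are 91.5% of the list, the same share as for members, beside 59.3% of all protein-coding genes. The list had median heights of 2.19 and 3.09. Closed in both libraries were Cplx4, a retinal complexin, Syt15, Doc2g and Unc13d, the priming factor of immune granules. The most shared distal regions in that list were at Cadps, a priming factor of dense core vesicles, with 7, and at Dnm3 and Erc2 with 6 each. As a check of the tissue, 7 of 8 marker genes of hippocampal excitatory neurons were open in both libraries, as were 2 of 8 for interneurons, 4 of 8 for astrocytes, 4 of 8 for the oligodendrocyte lineage, 0 of 8 for microglia, 2 of 8 for endothelial and mural cells and 0 of 8 for hepatocytes. With the longer lists the counts in the same order were 7, 4, 8, 4, 2, 5 and 1. Over all protein-coding genes, 59.3% were open in both libraries with the shorter lists and 64.4% with the longer ones. The part of each cell type in the members' regions was not tested.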

How the data were processed

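Each library came with 2 region lists, footprints and false discovery rates per base on mm10, made by the authors from filtered alignments, per the labels and the accompanying notes. Caller, version, threshold and depth were not given in the sources used here. Values therefore carry no estimate of the error from depth. The region value is a signal that the authors deposited per region. The deposited footprint lists repeat 1 p-value, 0.01, which was taken as a cutoff and not as a measurement, and the per-base rates are p-values adjusted by the authors and deposited up to 0.05. The shorter lists held 54546 and 74278 regions and the longer 94187 and 131213. Shared regions overlapped by at least 1 bp.

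Genes were from GENCODE mouse M21, and region ends lay inside the GRCm38 lengths on all 21 chromosomes used. Promoter sequences are from RefSeq (GRCm38.p6) and were found for 35 members. Python 3.11.15, pandas 2.3.3, pysam 0.24.0 and bedtools 2.31.1 were used, and the interval code was tested on simulated data. With 1 group, no test between conditions was made. Full values are given for members without a promoter region in a library, the 5 highest and 5 lowest promoters, the 5 with most distal regions, those with several open starts and the extremes of each family. The members and lists were chosen with earlier results of these data known. Alternatives were other lists, distances, loci, overlaps and starts, and each library alone.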

Additional observations from a re-analysis of the deposited data

How the results depend on the processing

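The number of shared distal regions, 85, was 187 with the longer lists, 44 with the stronger 50% of regions, 151 with loci of the gene body plus 50 kb, and from 101 to 171 with 1 library alone, where no sharing is asked. The median promoter height of members, 1.94 as the mean of the libraries, was 2.44 with the stronger 50% of regions and 2.48 with the sum over promoter regions. With the stronger 50% of regions 25 pairs within families did not overlap, in place of 60, since fewer genes are then open. The same setting left 6 members, in place of 14, with a distal region above the promoter in both libraries. Neither count is given beside a share over all protein-coding genes. The latter was an alternative chosen after seeing the data, as were the leaving out of the Rab3a and Vamp2 loci and the 2 further RE1 settings. The count of open RE1 matches was 5 with up to 2 mismatches and 6 with the longer lists. Single promoter heights moved by more than the spread between the libraries for 24 of 47 members with the sum, 9 with the stronger 50%, and 3 each with equal numbers of regions and with 2500 bp. No paired analysis was possible because there is 1 group only. Without a stated depth, an absent region is only one that the lists do not hold.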
